A study of Mus musculus with 4 samples.

Results

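The genes described here are 42 components of the mitotic machinery: the spindle assembly checkpoint, the kinetochore, the kinesin motors, the mitotic kinases and the enzymes that part sister chromatids. They were chosen by gene symbol from known function, with earlier results of these data known. Each symbol matched 1 row of the 55401 genes in the deposited table. RNA-seq was performed on E14 mESCs, a mouse embryonic stem cell line, with 2 libraries from WT cells and 2 from Haspin-KO cells. Both groups were grown in LIF and 2i medium with serum and received no treatment. Haspin-KO cells had been made from WT E14 cells with CRISPR/Cas9 and a pair of gRNAs in the Haspin coding sequence, and were picked as single clones that lacked H3T3ph, the histone mark that Haspin writes. The labels do not say which clone each library came from, so that a clone and the knockout cannot be told apart. Nothing says that the libraries of a group came from separate cultures, and the p-values then measure only the spread between these libraries.

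The kinetochore is the protein assembly that joins each chromatid to spindle microtubules. Its inner layer sits on centromeric chromatin, its outer layer binds microtubules, and unattached kinetochores send the checkpoint signal that keeps Cdc20 from activating the anaphase-promoting complex. Genes of this machinery are transcribed mainly in G2 and M phase, and many are known to be repressed earlier in the cycle through a promoter element named the cell cycle genes homology region (CHR). Haspin acts at the same place, since its mark on histone H3 brings the chromosomal passenger complex to the inner centromere. The comparison of Haspin-KO with WT cells therefore asks whether transcripts of the machinery around this kinase differed in its absence.

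Promoter windows from 250 bases before to 50 bases after the gene start (RefSeq, GRCm38.p6) were found for 37 of the 42 genes. Spc24, Kif20a, Ska1, Nsl1 and Tpx2 had no entry. A CHR, searched as TTTGAA or TTCGAA on both strands, lay in the windows of 22 of the 37 genes, or 59.5%, against 21.7% of all 27025 genes. CCAAT, a box often found upstream of a CHR, was present in 24 of the genes (64.9%, against 41.1%), and both elements in 17 (45.9%, against 8.6%). E2F sites, searched as TTTCCCGC, TTTGGCGC or TTTCGCGC, were rare, with 2 of 37 genes (5.4%) against 2.1% of all genes. Among 19 genes of G1/S transition and DNA replication with a window, 42.1% held an E2F site and 21.1% a CHR. Among 10 regulators of G2/M with a window, 60.0% held a CHR and 5 of the 10 both a CHR and a CCAAT box, so that these shares are not particular to the 42 genes. The shares are descriptions of letters in a window and say nothing of factor binding.

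**Figure D1:**
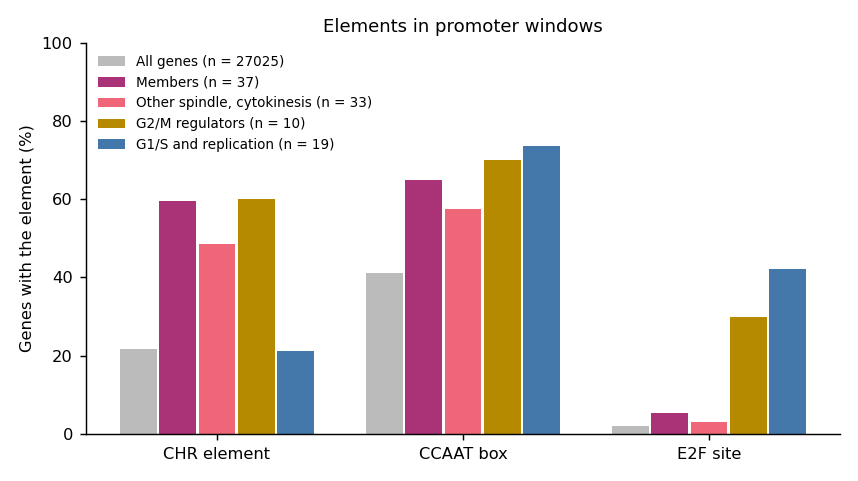
Share of genes, in percent, whose promoter window held a CHR, a CCAAT box or an E2F site, for all genes (n = 27025), the mitotic genes described here (n = 37), other spindle and cytokinesis genes (n = 33), G2/M regulators (n = 10) and G1/S genes (n = 19). The CHR bars of the mitotic genes (59.5%) and of the G2/M regulators (60.0%) are close to each other, and the G1/S genes have the highest bar for the E2F site (42.1%).

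In 19 of the 37 genes (51.4%) a CHR started within 50 bases of the gene start, against 6.1% of all genes. In 5 of these 19 (26.3%) the letters GGCGG stood in the 12 bases before the CHR, against 1.6% of all genes with a CHR that near the start. Any distance within the 12 bases was accepted, and it varied between the genes, so that the share does not count cell cycle-dependent elements. The search for GGCGG was added after the windows had been seen. The windows of these 5 genes, and then those of 6 others that the results return to, are shown 5′ to 3′ on the strand that reads TTTGAA, with the CHR in capitals, 12 bases on either side and coordinates of GRCm38.
Cenpf, chr1:189688067-189688096 (-): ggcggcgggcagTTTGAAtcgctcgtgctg
Spc25, chr2:69206172-69206201 (-): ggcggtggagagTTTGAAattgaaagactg
Knl1, chr2:119047138-119047167 (+): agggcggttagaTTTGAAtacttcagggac
Cenpa, chr5:30666890-30666919 (+): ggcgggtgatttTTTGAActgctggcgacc
Ndc80, chr17:71526811-71526840 (+): aacccaaggcggTTTGAAttttaaagtttc
Cdc20, chr4:118437344-118437373 (-): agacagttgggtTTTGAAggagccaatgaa
Plk1, chr7:122159453-122159482 (+): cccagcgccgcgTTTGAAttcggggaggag
Bub3, chr7:131560315-131560344 (-): tcattggctgatTTTGAAcgccaacggctc
Ttk, chr9:83834684-83834713 (-): tccggaaacacgTTTGAAatttccccgctg
Aurka, chr2:172370521-172370550 (-): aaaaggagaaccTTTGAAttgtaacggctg
Kif11, chr19:37376351-37376380 (-): ccgcgcctcaatTTTGAAaaatggagacga
Counting the gene start as position 1, the element began at position 3 in Cenpf and at position 32 in Knl1, and it began 18 bases before the start in Cdc20, so that its place relative to the start varied between the genes. The median log2 fold change of Haspin-KO over WT was 0.04 over the 22 genes with a CHR and 0.06 over the 15 without one.

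The libraries held 21834847 and 17452307 counts for WT and 14207828 and 14436750 counts for Haspin-KO. Haspin itself (ENSMUSG00000050107, chromosome 11) had 40.1 and 35.7 CPM (counts scaled to a common library size) in WT and 10.4 and 14.6 in Haspin-KO, with a log2 fold change of -1.60 (SE 0.159, adjusted p = 0.00154 by edgeR), so that transcripts of the targeted gene were lower in both libraries labelled Haspin-KO but still counted. Without WT replicate 1 its adjusted p was 0.0509 by edgeR. All 10 markers of mESCs were counted in every library, with Pou5f1 between 933.4 and 1072 CPM. By edgeR 0 of the 10 passed the adjusted threshold, against 2.5% of all genes tested. At an unadjusted p under 0.05 edgeR gave 3 of the 10 (Klf4, Dppa5a and Tdgf1), against 20.8%. All 3 were lower in Haspin-KO, against 10.4% of all genes tested in that direction. Of the 10, 8 had a log2 fold change below 0, while 49.4% of all genes tested lay above 0. Klf4 was the lowest, at -0.295 (adjusted p = 0.060 by edgeR). DESeq2 called 1 of the 10, lower, against 3.77% of genes with an adjusted p. The 16 fibroblast markers had sums of 287.1 and 215.6 CPM in the WT libraries, against 64.75 and 61.79 CPM in the Haspin-KO libraries. Of the 13 of these tested, 10 were called lower in Haspin-KO cells by edgeR, against 2.5% of all genes tested in either direction. Postn and Lox were at 0 counts in both Haspin-KO libraries, and Fbn1 was at 17.4 to 21.5 CPM in all 4 libraries. In bulk RNA fewer cells of a type and less RNA per cell cannot be told apart. mESCs of the study were passaged on mouse embryonic fibroblasts and kept on gelatin for assays. The 10 genes listed as markers of 2-cell-like cells had sums of 134.7 and 128.2 CPM in the WT libraries, against 217.3 and 179.6 in the Haspin-KO libraries. By edgeR 4 of 9 tested were called higher, against 2.5% of all genes tested in either direction. Eif1ad was the largest value of the list in each library, with 75.2 and 75.8 CPM in WT and 69.8 and 67.9 in Haspin-KO. It was the only 1 of the 9 tested with a log2 fold change below 0 (-0.13), so that these values do not bear out its place in the list. Since it makes up much of the sums, they hide part of the difference in the others. The part of these differences in the values of the mitotic genes was not tested.

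All 42 mitotic genes passed the filter on low counts, with 121 to 18583 counts per library. None of the 42 differed between Haspin-KO and WT cells at an adjusted p under 0.05 by edgeR's quasi-likelihood test, while 2.5% of the 15580 genes tested did. With a fold change over 2 as a further demand, 0 of the 42 and 0.828% of all genes tested passed. By DESeq2, which called 3.77% of genes with an adjusted p, the count was also 0 of 42. Limma on FPKM called 0.0% of all genes, so that its count of 0 carries nothing about the 42. At an unadjusted p under 0.05 edgeR gave 2 of the 42 (4.76%), Knl1 and Spc24, against 20.8% of all genes tested. DESeq2 gave 1 of the 42 at that level, against 14.7% of the 12551 genes with an adjusted p. Limma gave 4, against 18.5% of the 14817 genes in its fit. The median log2 fold change was 0.04, between -0.22 for Spc24 and 0.28 for Knl1, beside a median of -0.00 over all genes tested.

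The changes were also small in size. In 41 of the 42 genes (97.6%) the absolute log2 fold change was under 0.25, against 64.4% of all genes tested, and Knl1 was the exception. The median absolute log2 fold change was 0.068 for the 42 genes, 0.176 for all genes tested and 0.136 for the 9594 genes tested that lay within the abundance range of the 42. Within that range, which bounds abundance but does not match it gene by gene, 3.03% of genes were called. The median SE was 0.084 for the 42 genes and 0.136 for all genes tested. The sizes are thus not compared at like precision. The 95% intervals of 41 genes lay between -0.5 and 0.5, and that of Cenpk reached 0.62. For a gene with the median spread of the 42, a log2 fold change of 0.38 would have been needed for a call in this edgeR fit, and the need ranged from 0.31 to 0.88. The limit belongs to that fit and not to the libraries alone.

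**Figure D2:**
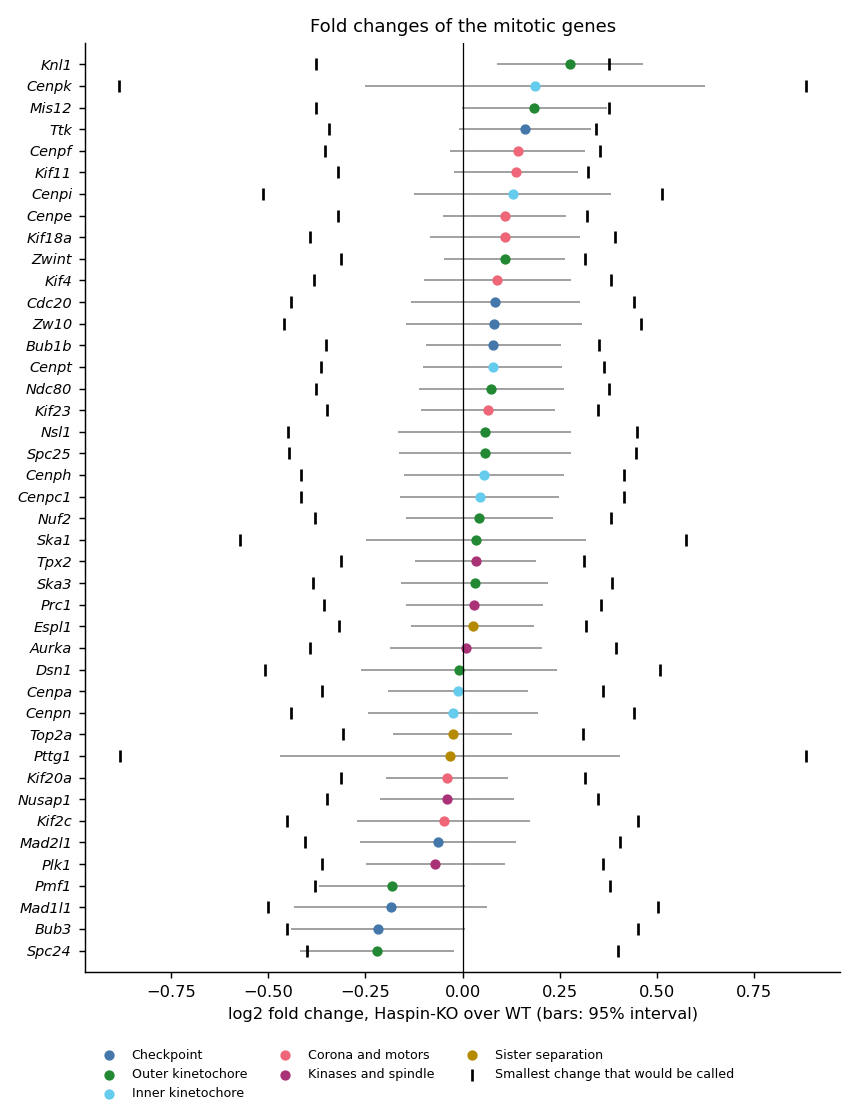
Fold change of each mitotic gene on the log2 scale (x axis, Haspin-KO over WT), ordered by size, with 95% intervals from the edgeR fit as bars and black ticks at the smallest change that would have been called. All 42 points lie inside their ticks, from -0.22 for Spc24 to 0.28 for Knl1.

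Summed over the 42 genes, WT libraries held 5679 and 5483 CPM, and Haspin-KO libraries 5705 and 5663 CPM. The sum was 1.018-fold that of WT, with the Haspin-KO libraries just past the higher WT library in one case and between the WT libraries in the other. Both Haspin-KO libraries lay on the same side of both WT libraries for 13 genes (31.0%), against 52.3% of all genes tested. Of these, 10 were higher in Haspin-KO (Knl1, Mis12, Ttk, Kif11, Cenpf, Cenpe, Kif18a, Zwint, Ndc80 and Nuf2), or 23.8% against 25.3%. The other 3, Spc24, Bub3 and Pmf1, were lower, or 7.14% against 26.9%. In all, 28 of the 42 genes (66.7%) had a log2 fold change above 0, against 49.4% of all genes tested.

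**Figure D3:**
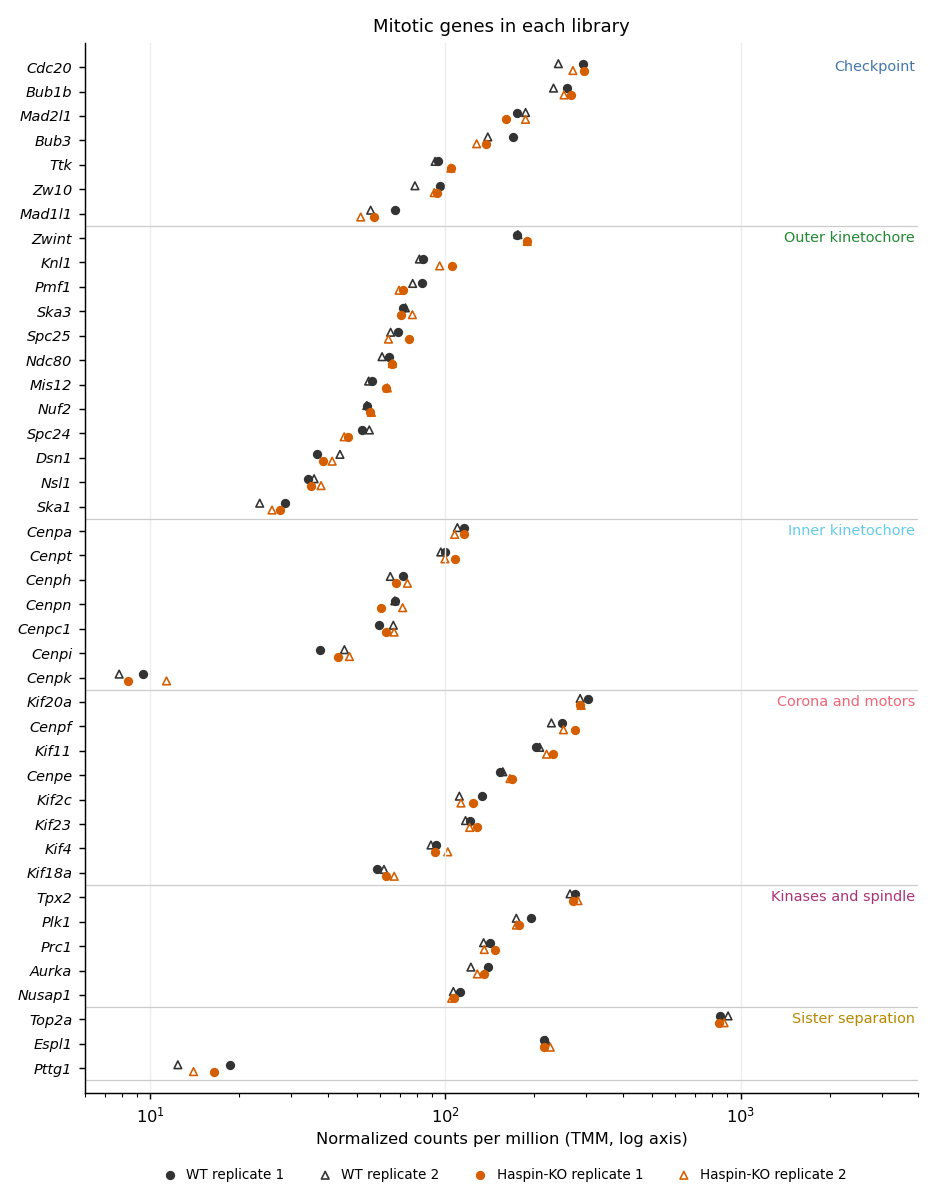
Normalised CPM (log axis) of the 42 mitotic genes in each library, with WT in black and Haspin-KO in orange, circles for replicate 1 and triangles for replicate 2, grouped by role. In most rows the black and orange symbols overlap, and Top2a (847 to 906 CPM) and Cenpk (7.85 to 11.4 CPM) mark the extremes.

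The checkpoint group holds 7 genes, with a median log2 fold change of 0.08 and a range from -0.22 to 0.16. Bub3 (chromosome 7, from 131560222 to 131571895 of mm10) encodes the adaptor that carries Bub1 and BubR1 to the kinetochore. It had 168.9 and 139.1 CPM in WT and 137.4 and 127.5 CPM in Haspin-KO. The groups did not overlap, but the higher Haspin-KO value was close to the lower WT value, and the log2 fold change was -0.22 (SE 0.10, adjusted p = 0.252 by edgeR). It was -0.07 without WT replicate 1 and -0.34 without WT replicate 2. Ttk (chromosome 9, from 83834689 to 83872389) encodes Mps1, the kinase that starts checkpoint signalling. It had 94.1 and 92.2 CPM in WT and 104.2 CPM in each Haspin-KO library, with a log2 fold change of 0.16 (SE 0.076, adjusted p = 0.263 by edgeR). Both groups were tight, with a fitted difference of 11.8%, and with GC content and length corrected for the log2 fold change was 0.04.

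Cdc20 (chromosome 4, from 118432901 to 118437352), the activator of the anaphase-promoting complex that the checkpoint restrains, had 292.3 and 241.2 CPM in WT and 295.6 and 270.1 CPM in Haspin-KO. WT replicate 2 was the low library, and the log2 fold change of 0.08 (95% interval from -0.13 to 0.30) went to -0.04 without it. Bub1b, which encodes BubR1, ranged from 232.2 to 257.9 CPM in WT and from 252.1 to 265.7 in Haspin-KO, with a log2 fold change of 0.08. Mad2l1 and Mad1l1, partners in the inhibitory signal, had log2 fold changes of -0.06 and -0.19, and Zw10, a subunit of the complex that brings dynein and Mad proteins to kinetochores, had 0.08. In these 4 genes the groups overlapped. WT replicate 1 was above WT replicate 2 in 6 of the 7 checkpoint genes, by a median of 0.28 on the log2 scale, which exceeded each of the fold changes between the groups.

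The outer kinetochore group holds 12 genes and both ends of the range. Knl1 (chromosome 2, from 119047119 to 119105501) encodes the scaffold onto which Bub3 and the Bub kinases are loaded. It had 84.0 and 81.6 CPM in WT and 104.9 and 95.5 CPM in Haspin-KO. Both Haspin-KO libraries were above both WT libraries, with a fitted difference of 21.1%, and the log2 fold change was 0.28 (SE 0.083, 95% interval from 0.09 to 0.46). By edgeR the unadjusted p was 0.00845 and the adjusted p was 0.109, so that it missed the threshold, and after a correction for GC content and length the log2 fold change was 0.03. With 37.7% GC its transcript is among the most AT-rich of the 42. That correction reversed the slope of the fold changes with GC content over the 42 genes, as given below. A part of base composition or length in the Knl1 value was not tested.

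Spc24 (chromosome 9, from 21755442 to 21760303), a subunit of the NDC80 complex that couples kinetochores to microtubules, had 52.1 and 55.2 CPM in WT. In Haspin-KO it had 46.7 and 45.4 CPM, below both WT libraries, with a log2 fold change of -0.22 (SE 0.088, adjusted p = 0.20 by edgeR). With GC content and length corrected for, the value was -0.12. Spc25, Ndc80 and Nuf2 had log2 fold changes of 0.06, 0.07 and 0.04, with intervals that held 0, and under that correction they had -0.05, -0.07 and -0.12, so that the opposite signs were not kept. Spc25, which binds Spc24 directly, had 68.9 and 65.2 CPM in WT and 75.5 and 64.1 CPM in Haspin-KO, so that its groups overlapped.

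The 4 subunits of the MIS12 complex, which links the inner and outer layers, had values on both sides of 0. Mis12 (chromosome 11, from 71019611 to 71027371) had 56.3 and 54.9 CPM in WT and 62.8 and 63.5 CPM in Haspin-KO, with a log2 fold change of 0.18 (SE 0.083, adjusted p = 0.246 by edgeR). Pmf1 (chromosome 3, from 88394143 to 88410331) had 83.2 and 77.4 CPM in WT and 72.0 and 69.6 CPM in Haspin-KO, with a log2 fold change of -0.18 (SE 0.083, adjusted p = 0.252 by edgeR). Neither gene overlapped between the groups, and neither passed the test. Nsl1 (chromosome 1, from 191063012 to 191086474) had 34.2 and 35.9 CPM in WT and 35.0 and 37.9 CPM in Haspin-KO, and its log2 fold change of 0.06 (SE 0.099) became -0.00 without Haspin-KO replicate 2. Dsn1, the subunit through which the complex is regulated by Aurora B, had -0.01. In Mis12, 7.7% of the exonic bases are also exons of Derl2 on the other strand, and the strand setting of the counting is not given in the sources used here.

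Zwint, a Knl1 partner, had 174.6 and 175.9 CPM in WT and 188.7 and 189.2 CPM in Haspin-KO. Its libraries lay close together within each group, yet the log2 fold change of 0.11 (SE 0.069, adjusted p = 0.401 by edgeR) was under the 0.31 needed for a call. Ska1 and Ska3, subunits of a complex that holds kinetochores to shortening microtubules, each had a log2 fold change of 0.03. Of the outer kinetochore genes, 9 were above 0 and 3 below, with a median of 0.05.

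The inner kinetochore genes encode the centromeric histone and the network of proteins built on it. Cenpa, the histone H3 variant that marks the centromere, had 115.1 and 109.7 CPM in WT and 115.7 and 107.4 CPM in Haspin-KO. The groups overlapped almost fully, and the log2 fold change was -0.01 (95% interval from -0.19 to 0.17). Cenpc1 and Cenpt, which connect the network to the outer layer by separate routes, had log2 fold changes of 0.04 and 0.08, and Cenpn, a reader of the CENP-A nucleosome, had -0.03. Cenph, Cenpi and Cenpk, subunits of a shared subcomplex, had 0.06, 0.13 and 0.19.

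Cenpk (chromosome 13, from 104228611 to 104252392) was the least abundant of the 42 genes and had the widest interval. It had 9.48 and 7.85 CPM in WT and 8.43 and 11.4 CPM in Haspin-KO, and its log2 fold change of 0.19 (SE 0.195) went to -0.05 without Haspin-KO replicate 2 and, with GC content and length corrected for, to -0.06. The groups overlapped in each of the 7 inner kinetochore genes, and the median was 0.06.

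The corona protein and motor group had the highest median of the 6 groups, at 0.10. In it 4 of 8 genes did not overlap between WT and Haspin-KO, against 52.3% of all genes tested. Kif11, the motor that pushes spindle poles apart, had 202.5 and 208.5 CPM in WT and 232.0 and 220.0 CPM in Haspin-KO, with a log2 fold change of 0.14 (SE 0.071). Cenpf, a large protein of the outermost kinetochore layer, had 247.4 and 228.4 CPM in WT and 273.9 and 251.0 CPM in Haspin-KO, with 0.14 (SE 0.078). Cenpe, the kinesin that moves chromosomes towards the metaphase plate, had 153.1 and 156.4 CPM in WT and 168.4 and 165.3 CPM in Haspin-KO, with 0.11 (SE 0.071). In each of the 3 genes the Haspin-KO libraries were the higher ones, with adjusted p from 0.305 to 0.411 by edgeR.

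Kif18a (chromosome 2, from 109280738 to 109341747), which dampens chromosome oscillation at the plate, had 58.6 and 61.9 CPM in WT and 62.9 and 67.0 CPM in Haspin-KO. Its log2 fold change of 0.11 (SE 0.086) became -0.13 after the correction for GC content and length. Kif4 and Kif23, motors of the central spindle, had 0.09 and 0.07, and Kif20a, which relocates the chromosomal passenger complex at anaphase, had -0.04. Kif2c, a microtubule depolymerase that corrects faulty attachments, had -0.05. In Kif20a, 29.3% of the exonic bases are also exons of Cdc23 on the other strand, and in Kif4 15.1% are exons of Pdzd11. In all, 13 of the 42 genes share exonic bases with another annotated gene, on the other strand in each case but Top2a, which holds a snoRNA on its own strand. After the correction the median of the group was -0.03, so that its sign differed between the fits. The same correction reversed the slope with GC content over the 42 genes. What part GC content or length had in the median of the group was not tested.

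The kinases and spindle factors lay from -0.07 to 0.03, with a median of 0.01 and an overlap of the groups in all 5 genes. Plk1 (chromosome 7, from 122159439 to 122169873), a kinase needed for kinetochore assembly and spindle formation, had 195.2 and 173.7 CPM in WT and 177.8 and 173.9 CPM in Haspin-KO. Only WT replicate 1 stood above the other libraries, and without it the log2 fold change of -0.07 (SE 0.080) became 0.02. Aurka, the kinase of spindle poles, and Tpx2, its activator, had 0.01 and 0.03, with 95% intervals from -0.19 to 0.20 and from -0.12 to 0.19. Prc1, which bundles microtubules of the central spindle, had 0.03, and Nusap1, a microtubule binder near chromatin, had -0.04.

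Of the genes of sister separation, Top2a (chromosome 11, from 98992943 to 99024189), the topoisomerase that untangles sister DNA, was the most abundant of the 42 in CPM. It made up 15.7% of their summed CPM in WT. It had 850.6 and 906.1 CPM in WT and 847.0 and 878.2 CPM in Haspin-KO, with a log2 fold change of -0.03 (SE 0.068) that was 0.03 without WT replicate 2 and 0.00 without Haspin-KO replicate 1. Espl1, which encodes separase, had 0.03 (95% interval from -0.13 to 0.18). Pttg1, which encodes its inhibitor securin, had 18.6 and 12.4 CPM in WT and 16.5 and 14.01 CPM in Haspin-KO. The WT libraries of Pttg1 enclosed both Haspin-KO libraries, and its log2 fold change was -0.03 (95% interval from -0.47 to 0.41).

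Spread between replicates was of the size of the differences between the groups. The median absolute difference between replicates over the 42 genes was 0.082 on the log2 scale in WT and 0.093 in Haspin-KO, beside the median absolute fold change of 0.068. WT replicate 1 was the higher WT library in 27 of the 42 genes, with Pttg1 the farthest apart at 0.58. In Haspin-KO, Cenpk was the farthest apart, with replicate 1 lower by 0.43.

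Levels of the genes were compared as FPKM, which is per length. The median of the 42 was 19.9 FPKM (mean of the 4 libraries per gene), against 4.86 for all genes tested. Cdc20 was at the top, with 156.5 and 128.3 FPKM in WT and 160.0 and 143.0 in Haspin-KO, followed by Top2a (94.4 to 99.9), Plk1 (78.2 to 88.8) and Kif20a (65.4 to 70.0). The ranges of these 4 genes over the libraries did not overlap. Next came Bub1b, Tpx2 and Aurka at 58.9, 58.1 and 51.8, where the range of Bub1b overlapped those of both Tpx2 and Aurka. Another 27 genes lay from 10 to 50 FPKM, and neighbours in the order mostly overlapped, since only 9 of the 41 neighbouring pairs had separate ranges.

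At the lower end, 8 genes were under 10 FPKM, among them Ndc80, Ska1, Nuf2, Pttg1 and Cenpi. Nsl1 had 6.46 and 6.72 FPKM in WT and 6.68 and 7.07 in Haspin-KO. Kif18a had 5.97 and 6.25 FPKM in WT and 6.46 and 6.74 in Haspin-KO. Cenpk was lowest, with 1.81 and 1.49 FPKM in WT and 1.63 and 2.15 in Haspin-KO, and the level of Cdc20 was 83.0-fold that of Cenpk.

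The distance between subunits of a complex depended on the length that divides the counts. In the deposited FPKM the subunits of the NDC80 complex fell into pairs, with Spc25 and Spc24 at 21.4 and 19.3 and Ndc80 and Nuf2 at 9.89 and 8.65 (means of the 4 libraries). Per length of the longest coding transcript the levels were 44.8 for Spc25, 29.3 for Spc24, 29.2 for Ndc80 and 22.8 for Nuf2, in the same order but without the gap between the pairs. In the MIS12 complex, Pmf1 was below Mis12 in the deposited FPKM (18.6 against 19.7) and above it on that scale (74.9 against 19.7). Cenpa moved from rank 24 to rank 5, and Top2a took the first rank from Cdc20. Spearman's rho between the orders was 0.836 over the 42 genes, which share their counts on both scales.

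Fold changes of the 42 genes went with base composition. The median GC content of their longest transcripts was 46.2%, against 49.7% for all genes tested, and Pearson's r of the log2 fold change with GC content was -0.502 over the 42 genes and -0.216 over all genes tested. Both are correlations across genes of the same 4 libraries, and genes are not independent replicates. Among the 10 genes lowest in GC content, 8 had a log2 fold change above 0 (median 0.09), and among the 10 highest 6 did (median 0.02). After a correction for GC content and length fitted on all genes, r was 0.005 over all genes tested but 0.507 over the 42. The median of the 42 was then -0.03, 18 of them had turned sign and 14 were above 0 in place of 28, with 0 of 42 called. Whether base composition had a part in the values of single genes was not tested beyond this.

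**Figure D4:**
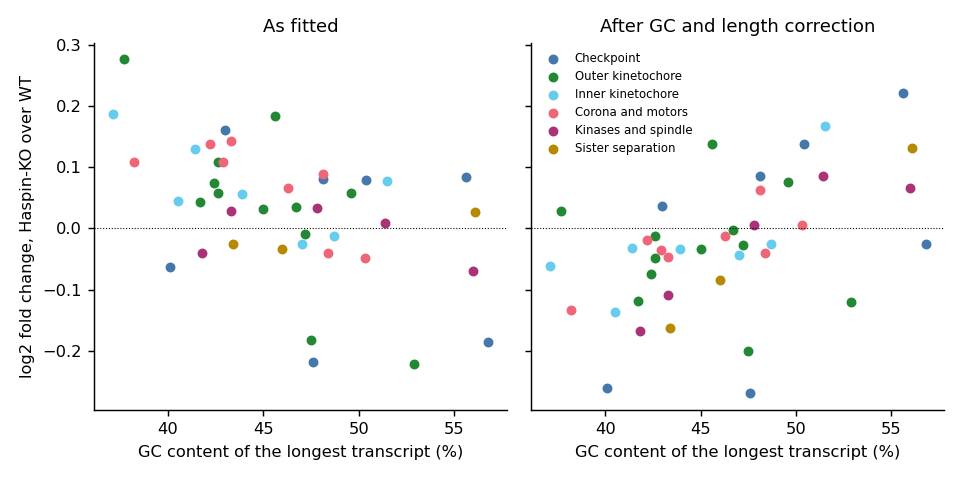
Fold change of each of the 42 genes on the log2 scale (y axis) against the GC content of its longest transcript in percent (x axis), as fitted (left) and with GC content and length corrected for (right), coloured by role. The downward slope on the left (r = -0.502) became an upward slope on the right (r = 0.507).

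Other lists of cell division genes also had medians near 0. No gene of the 5 lists named here was called by edgeR, against 2.5% of all genes tested, and the medians lay from -0.11 to 0.10. Among 24 other kinetochore genes the median was 0.00, with 2 higher and 1 lower at an unadjusted p under 0.05, a level that 10.4% of all genes tested reached in each direction. Among 18 genes of the anaphase-promoting complex and its regulators the median was -0.11, with 1 higher and 5 lower at that level. DESeq2 called 1 of the 18, also lower, as did edgeR with GC content and length corrected for. The smallest adjusted p by edgeR was that of Anapc13, a small subunit of the complex, which was singled out after its values were seen. It had 31.1 and 25.5 CPM in WT and 20.3 and 17.3 CPM in Haspin-KO, with a log2 fold change of -0.59 (SE 0.14, adjusted p = 0.060 by edgeR).

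Among 37 other spindle and cytokinesis genes the median was 0.10, with 8 higher and 1 lower at an unadjusted p under 0.05. Of all genes tested, 10.4% reached that level in each direction. With GC content and length corrected for, the median of the 37 was 0.01, and 1 gene was called, lower. Among 15 regulators of G2/M, which include Foxm1 and subunits of the complexes that bind the CHR, the median was -0.02, with 1 higher and 2 lower at that level. The 25 genes of G1/S transition and replication had a median of -0.10, with 0 higher and 5 lower, and 19 of 25 were below 0. DESeq2 called 0 genes of these 3 lists and of the other kinetochore genes, while limma called no gene of the whole table. The 84 tested genes of the 123 with the GO term kinetochore in the deposited table, some of which are among the 42, had a median of 0.03 with 0 called by edgeR and 16 at an unadjusted p under 0.05, against 20.8% of all genes tested.

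**Figure D5:**
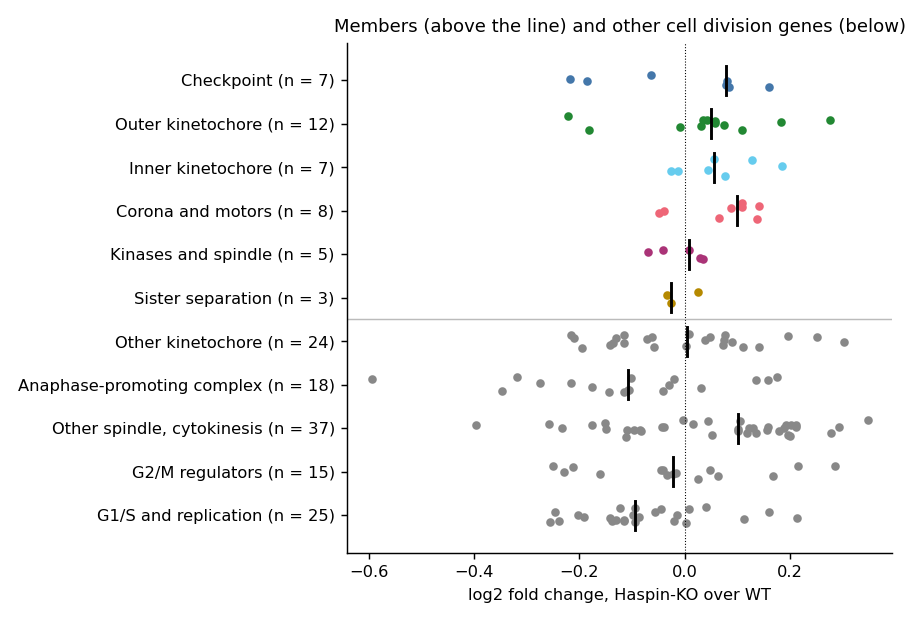
Fold changes on the log2 scale (x axis, Haspin-KO over WT) of the 42 genes by role (coloured, above the line) and of 5 lists of other cell division genes (grey, below), with 1 point per gene and a black bar at each median. Points scatter on both sides of 0 in every list, with medians from -0.11 to 0.10, and the lone point at -0.59 is Anapc13.

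The 42 genes lie on 18 chromosomes, 8 of them on chromosome 2. The median log2 fold changes over all genes tested of those chromosomes ran from -0.08 to 0.07, beside medians of -0.03 to 0.10 over the 6 groups of mitotic genes.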

How the data were processed

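RNA-seq libraries (SMARTer kit, per the labels) were made from 2 WT and 2 Haspin-KO samples. The authors trimmed reads with Cutadapt (1.9.1) and mapped them to mm10 with HISAT2 (2.0.1), and the submitters' processing notes also name HTSeq (0.6.1). They deposited raw counts per gene and FPKM, which equal the deposited counts per exonic length and library total in 100% of values. The counting mode and annotation release are not given in the sources used here, although coordinates and exonic lengths of all 42 genes equal those of GENCODE vM21.

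From the counts, edgeR (4.0.16, R 4.3.3) was run with its filter on low counts (15580 genes kept, 26731 without a count), TMM scaling and quasi-likelihood tests (no block term), with Benjamini-Hochberg adjustment over all genes tested and a threshold of 0.05. CPM in the text are TMM-normalised, and sums over marker genes use library totals. Intervals use the t distribution of the fit with 9.42 degrees of freedom. An exact permutation test of 2 against 2 libraries cannot go below p = 0.333. DESeq2 (1.42.0) and limma (3.58.1) on log2(FPKM + 0.1) were alternatives, with other normalizations and filters, each library left out, the replicate number as a block, and loess offsets for GC content and length. A simulation held 15580 genes, 200 of them altered. In it edgeR recovered 82.4% of changes of 1 and 99.1% of changes of 2 on the log2 scale, with 6 false calls. These rates say nothing of smaller changes, such as those of the mitotic genes, from -0.22 for Spc24 to 0.28 for Knl1. How closely the simulated spread matched that of these libraries was not tested.

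The 42 genes and all other lists were chosen with earlier results of these data known. Full values were given for the 6 genes of the 42 with the smallest p and the 3 highest and 3 lowest in mean FPKM, and every other one of the 42 by its fold change. The levels per longest coding transcript and the GO list were added after the data were seen. Counting error is part of the intervals, with counts down to 121 per library, and no spread beyond that of these libraries is covered.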

Additional observations from a re-analysis of the deposited data

How the results depend on the processing

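None of the 42 genes was called under DESeq2 size factors, library totals, no filter, a minimum of 10 counts, DESeq2, the 3 limma fits, the correction for GC content and length, the fold limit of 2 or any left-out library (0 to 0). An unadjusted threshold gave 2. With the replicate number as a block, edgeR called 4 of the 42, Knl1 higher (adjusted p = 0.00071) and Bub3, Spc24 and Pmf1 lower (adjusted p = 0.00694, 0.0305 and 0.0477). That fit called 3514 of all genes, or 22.6%, and 3 of 24 other kinetochore genes, 7 of 18 of the anaphase-promoting complex, 12 of 37 of spindle and cytokinesis, 3 of 15 G2/M regulators and 6 of 25 G1/S genes. In the block fit, p-values followed the normal distribution of fold change over SE, so that spread was taken from all genes together. The spread of a single gene thus had little or no part in its call. The correlation of the replicate differences between the groups was 0.289 with 2 pairs only, and no source says that same-numbered libraries were handled together, so the libraries share only a number. Over all genes edgeR called 390, against 1172 without a filter, 129 with the fold limit, 0 in each limma fit (2736, 2772 and 3582 at an unadjusted p under 0.05) and 35 to 629 with a library left out (35 without WT replicate 1, 43 without WT replicate 2, 629 without Haspin-KO replicate 2). The median over the 42 genes stayed from 0.02 to 0.08 under all these settings but the correction for GC content and length, where it was -0.029. The cause was not tested. That correction turned the sign of 18 of the 42 genes, among them Plk1 (0.066), Kif18a (-0.133) and Cenpk (-0.061) of the 12 given in full. With a library left out, the sign also turned in Plk1 (-0.145 to 0.017, above 0 without WT replicate 1), Cdc20 (-0.042 to 0.23, below 0 without WT replicate 2), Top2a (-0.071 to 0.026, above 0 without WT replicate 2 or Haspin-KO replicate 1), Nsl1 (-0.001 to 0.116) and Cenpk (-0.045 to 0.387, both below 0 without Haspin-KO replicate 2). Haspin kept its direction but missed the threshold under limma (adjusted p from 0.102 to 0.265) and without WT replicate 1 (0.0509). In the edgeR fit used throughout the results, no log2 difference under about 0.31 could be called in any of the 42 genes. The limit was not computed for the other fits.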
